A study of Mus musculus with 14 samples.

Results

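The 2693 genomic regions described here were more accessible in every one of 3 hippocampal libraries made after memory recall (Reactivated) than in any of 11 libraries made without recall. They were taken from 168650 autosomal regions with a mean of at least 0.83 RPKM (reads corrected for region length and library total), out of 191271 regions measured. Each library's RPKM values were first divided by the library's median over all regions, and the result is called scaled RPKM below, so that 1 is the level of the middle region of that library. A region was a member when the lowest of its 3 Reactivated values was above the highest of its 11 other values. The members were therefore chosen by the very values that set Reactivated apart, and their height in Reactivated is given as a description with no test.

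ATAC-seq measures how open chromatin is: a transposase cuts accessible DNA and tags the cut ends, so that promoters and enhancers in use collect many reads and closed chromatin collects few. Arc is an immediate early gene that neurons switch on after strong activity, and it is used to mark the neurons active while a memory forms, called an engram ensemble. Re-exposure to the fear-inducing cue makes part of such an ensemble active again. In neurons, activity-induced transcription factors can open or strengthen distal regulatory elements, and chromatin opened during learning can outlast the learning itself.

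All 14 libraries came from mice of the same strain label, ArcCreERT2 crossed to R26R-STOP-floxed eYFP, with the genotype given as +/+. In such mice a Cre recombinase made under Arc and active only with tamoxifen switches on a yellow fluorescent reporter, so the mark follows Arc and not every neuron of a memory. All received 4-hydroxytamoxifen before contextual fear conditioning, and the shock was given on day 0. Reactivated (n = 3) had recall on day 5, and the labels give collection on day 5 for replicate 1, on day 6 for replicate 2 and on day 7 for replicate 3. Late (n = 4) was collected on day 5 with no recall. Early (n = 3) and Basal (n = 4) carry the same treatment text as each other, with shock and collection on day 0, and the labels do not say what set Basal apart. Nuclei of hippocampi pooled from several mice were stained for NeuN, a neuronal marker, and for Arc and GFP, then sorted. The labels do not say which sorted population went into which library or which mice it came from. The spread between libraries may therefore be partly technical. A higher value in a sorted pool cannot be told apart from a larger share of nuclei with the region open. A gene annotation or genome sequence of the mm9 build, in which the regions are placed, was not used here. Regions are therefore named by position, and neither the sorted cell type nor the neighbouring genes were checked.

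Depth and the spread of levels differed between groups. Totals were 46134255 to 47375214 reads in Late, 54257748 to 54261752 in Early and 54266318 to 54269495 in Basal. Reactivated 2 and 3 had 54264713 and 54257224, and Reactivated 1 had 56251679. Totals were thus nearly equal in all libraries but Late and Reactivated 1. Whether reads were subsampled is not known. Reactivated libraries had 21.3% to 24.0% of their reads in the regions, against 18.4% to 20.0% in Late, 13.8% to 27.8% in Early and 13.2% to 19.3% in Basal. The ratio of the 99th percentile of regions to the median was 4.21 to 4.88 in Reactivated, 2.90 to 3.01 in Late, 3.42 to 4.73 in Early and 3.76 to 4.93 in Basal. Late was thus the group with the narrowest range of levels, and Early held both a library with a low share of reads in regions and the one with the highest. The part of these differences in the results below was not tested, except where a value under another scaling is given.

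The rule found 2693 of 168650 regions, or 1.60%, whereas 0.275% of them, or 463 regions, would meet it by chance if the 14 values of a region were exchangeable. The opposite pattern, with all 3 Reactivated values below all 11 others, was met by 1643 regions (0.974%). The same count for Late was 1176 regions above all others (0.697%) and 2627 below (1.56%). For Early it was 1185 (0.703%) and 3908 (2.32%), and for Basal 5047 (2.99%) and 8754 (5.19%). Chance would give 463 for Early and 168 for the groups of 4, Late and Basal. Each of the 4 groups exceeded its chance number in both directions. Under this scaling, Reactivated was the one group of the 4 with more regions above all other libraries than below them. Under other scalings its regions above numbered 1815 to 4073. Its regions below and the counts of the other groups were not taken under another scaling, so whether this contrast depends on the scaling was not tested.

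The members stood modestly above the other libraries. Their median scaled RPKM was 2.11, 1.91 and 1.94 in Reactivated replicates 1 to 3. It was 1.30, 1.41, 1.33 and 1.38 in Late, 0.987, 1.31 and 1.20 in Early, and 1.33, 1.12, 1.12 and 1.27 in Basal. Over all 168650 regions the same median lay between 1.05 and 1.08 in every library, so outside Reactivated the members were also above the middle region in all libraries but Early replicate 1. These values rest on a median of 119 to 147 reads per member in Reactivated, 68 to 78 in Late, 45 to 107 in Early and 47 to 74 in Basal. Taking the mean of the 3 Reactivated values over the mean of the other 11, the median member was 1.60-fold higher, with quartiles of 1.48 and 1.76 and a range of 1.16 to 4.33. Over all regions that could have been chosen this fold had a median of 1.04.

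**Figure D1:**
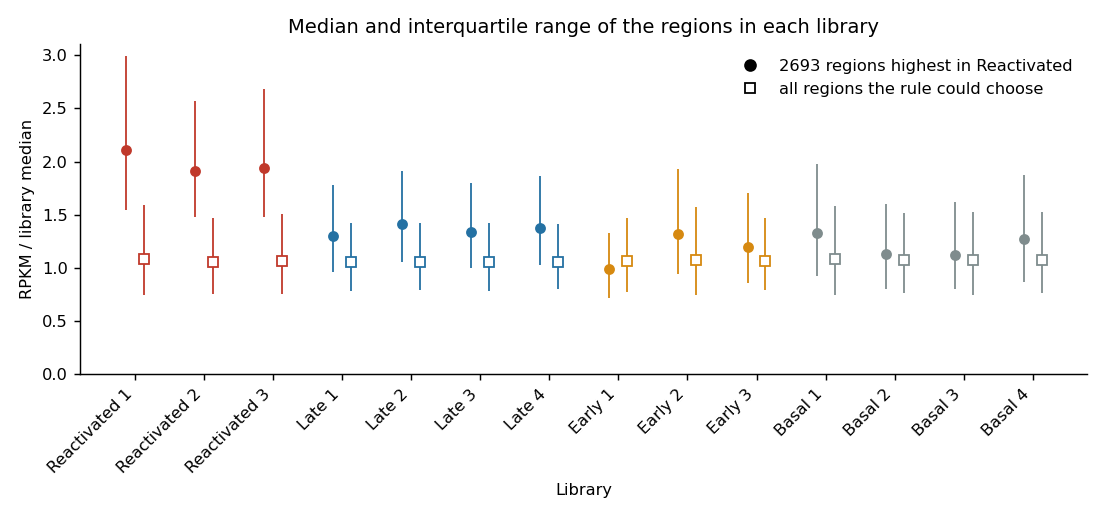
Scaled RPKM (RPKM divided by the library median, vertical axis) in each of the 14 libraries: filled circles are medians over the 2693 members, open squares medians over the 168650 regions the rule could choose, and vertical lines span the interquartile range. Members have medians of 1.91 to 2.11 in Reactivated and 0.987 to 1.41 elsewhere, while the open squares lie between 1.05 and 1.08 throughout.

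The gap between Reactivated and the nearest other library was narrow for most members. The lowest Reactivated value divided by the highest other value had a median of 1.06, with quartiles of 1.03 and 1.12 and a maximum of 1.57. It was at least 1.05 in 1554 members (57.7%), at least 1.1 in 857 (31.8%), at least 1.25 in 114 (4.23%) and at least 1.5 in 3. Within Reactivated the members were tight: their coefficient of variation over the 3 libraries had a median of 11.04%, against 23.8% over all regions, which the rule favours because 1 low value ends membership. In Late, which the rule constrains only from above, it was 12.3% for members and 19.9% for all regions. Members also held more reads in Late, a median of 68 to 78 per library, against 31 to 34 over all regions measured. The part of counting error in the smaller spread was not tested.

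Membership depended on which libraries were asked. Regions above all 11 other libraries in Reactivated 2 and 3 alone numbered 5802, and the library not used, Reactivated 1, was above all 11 in 46.4% of them, against 15.7% of all regions. With Reactivated 2 left aside, 6947 regions were chosen and Reactivated 2 was above all others in 38.8% of them, against 9.06% of all. With Reactivated 3 left aside, 5348 were chosen and the share was 50.4%, against 10.9%. The share over all regions is not the value to expect here, because the choice had already kept the 11 others low. If the 14 values were exchangeable, the left-out library would be above all 11 in 21.4% of the chosen regions. The left-out Reactivated library was above at least 6 of the 11 others in 77.2% to 86.8% of the chosen regions, against 52.3% to 55.3% of all regions. For the same reason that share over all regions is not the value to expect. These shares describe the values that the rule used and are not independent support for it.

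Reactivated replicate 1 was the highest of the 3 in 1476 members (54.8%), against 40.2% of all regions. Replicate 3 was highest in 721 (26.8%, against 32.3%) and replicate 2 in 496 (18.4%, against 27.5%). The labelled collection days rise by 1 with the replicate number, whether they are the true days was not checked, and a day cannot be told apart from its 1 library. On the other side, the library closest below Reactivated was Basal 1 in 560 members (20.8%, against 13.1% of all regions in which it was the highest of the 11) and Early 2 in 456 (16.9%, against 17.6%). Late 2 was closest in 358 (13.3%, against 6.58%). Early 1 was closest in 27 (1.00%, against 8.49%). Early 2 and Basal 1 thus decided membership most often: without Early 2 the rule found 4050 regions, and without Basal 1 it found 4119.

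The members with the widest margins show the pattern most plainly. The widest was chr10:127111752-127112281, 529 bases long, with scaled RPKM of 7.57, 5.78 and 5.04 in Reactivated, 2.97, 3.20, 2.41 and 3.05 in Late, 1.39, 2.69 and 2.23 in Early, and 3.18, 1.72, 2.49 and 2.26 in Basal. Its lowest Reactivated value was 1.57 times the highest of the others, and its libraries held 40 to 326 reads. The next, chr11:60993856-60994190, had 1.80, 1.52 and 1.64 in Reactivated, against 0.465 to 0.799 in Late, 0.580 to 0.989 in Early and 0.568 to 0.838 in Basal. All 3 Reactivated values lay well above the nearest other library, Early 1. At chr11:101387629-101387885 the Reactivated values were nearly equal, 1.68, 1.66 and 1.69, against 0.582 to 1.07 in Late, 0.215 to 0.708 in Early and 0.0741 to 1.09 in Basal. This region is 256 bases long and rests on 1 to 35 reads per library, so its low values carry large counting error.

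Of the 12 members with the widest margin, the others included short, low regions and longer, higher ones. The shortest was chr1:43271054-43271182, 128 bases, with 1.06, 2.03 and 1.30 in Reactivated and 0.121 to 0.717 elsewhere, on 1 to 19 reads. At chr11:78384959-78385542 Reactivated had 1.66, 1.10 and 1.09, against 0.534 to 0.746 in Late, 0.189 to 0.628 in Early and 0.456 to 0.729 in Basal. At chr16:17329961-17330530 it had 2.05, 1.83 and 1.77, against 0.451 to 1.21 in the other 11 libraries. Among these regions the 3 recall libraries were most alike at chr8:119974644-119975335, where they had 3.02, 3.07 and 3.03, against 1.63 to 2.12 in Late, 1.49 to 1.85 in Early and 1.79 to 2.00 in Basal. The highest of the 12 by level was chr15:74424229-74425317, with 16.5, 12.5 and 13.8 in Reactivated, 5.27 to 5.72 in Late, 5.26 to 8.76 in Early and 7.34 to 8.42 in Basal. It rests on 376 to 1460 reads, and here Late was below every Basal library. The remaining members of the 12 were chr10:66374821-66375478, chr4:142722282-142722432, chr2:5311468-5311782 and chr9:3000001-3004815, the last described with its neighbours below.

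**Figure D2:**
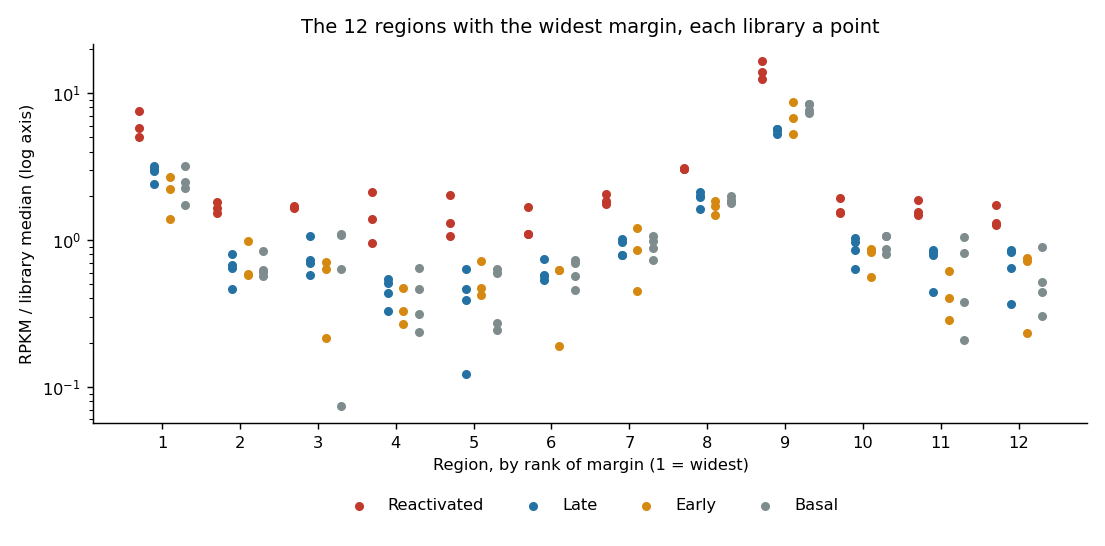
Scaled RPKM (log axis) of each library at the 12 members with the widest margin, ranked by the ratio of the lowest Reactivated to the highest other value, with groups side by side in the order Reactivated, Late, Early, Basal. Region 1 is chr10:127111752-127112281 and region 9 chr15:74424229-74425317, and at each rank the lowest Reactivated point is 1.41 to 1.57 times the highest other point.

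At the edge of the rule the choice turned on very small differences. Just inside, chr10:80052958-80053533, chr8:75094494-75096397, chr11:94194096-94194554 and chr5:66966278-66968260 had ratios that round to 1.00. At chr5:66966278-66968260 the Reactivated values were 0.948, 0.940 and 0.946, and the highest of the other 11, Late 4, was 0.940. Just outside, chr18:77458397-77459035, chr16:10080108-10080743, chr3:87350072-87350907 and chr2:144304968-144305611 had ratios that also round to 1.00. At chr2:144304968-144305611 the Reactivated values were 2.71, 2.02 and 1.98, and Basal 1 was 1.98. These regions in and out of the set could not be distinguished by their levels.

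The members were longer and more accessible than the regions they were drawn from. Their median length was 870 bases, against 529 over all regions, and 1074 members (39.9%) were at least 1000 bases long, against 18.0%. The share of regions that were members was 0.352% below 200 bases, 0.730% from 200 to under 500, 1.84% from 500 to under 1000, 3.54% from 1000 to under 2000 and 3.53% at 2000 bases or more. The opposite set, lowest in Reactivated, had the reverse order: its share was 1.21% and 1.23% in the 2 shortest classes and 0.481% in the longest.

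Level showed the same gradient. The highest decile of regions by mean RPKM held 860 members (31.9%), and 5.10% of its regions were members, against 0.652% of the lowest decile. When each decile was split at its median length, the longer regions had the larger share of members in every decile. The shares of longer and shorter regions were 7.33% and 2.88% in the highest decile, and 0.902% and 0.403% in the lowest. Among the shorter regions the rise with level lay mostly at the top, with 0.403% to 0.711% in deciles 1 to 8 and 0.959% in decile 9. The shorter regions of the highest decile had a median length of 441 bases, against 264 in decile 9. The opposite set made up 0.0119% of the longer regions of the highest decile. Because mean RPKM includes the Reactivated libraries themselves, the deciles were also taken from the mean of the other 11 libraries. The share was then 3.90% in the highest decile, 1.77% in the lowest and 0.961% in the fourth, so it was again highest at high level. The minimum of 0.83 RPKM still used all 14 libraries, so the lowest of these deciles holds regions that passed it only through high Reactivated values. After quantile normalization, which gives all libraries the same distribution of levels, 1815 regions met the rule and 1497 of them were members.

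**Figure D3:**
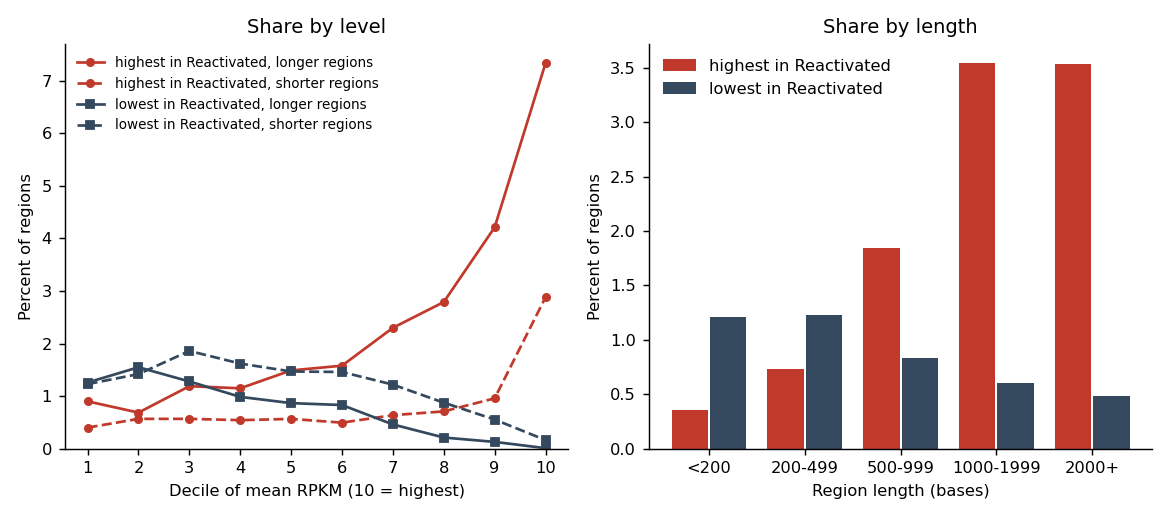
Share of regions (percent, vertical axes) that were highest (red) or lowest (dark blue) in Reactivated. On the left, by decile of mean RPKM, the share highest in Reactivated reaches 7.33% in the longer regions (solid line) and 2.88% in the shorter regions (dashed line) of the top decile. On the right, by region length, it is 0.352% in the shortest class and 3.53% in the longest.

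The members were compared next among the groups that had no recall, a comparison that does not use the Reactivated values, although the rule had set a ceiling on the other 11 libraries. The groups differed in spread, on which such a ceiling can act: over all regions the median coefficient of variation was 19.9% in Late, 27.6% in Early and 25.5% in Basal. The order of the groups and the calls below were not separated from the effect of the rule and are given as a description. Of these 3 groups, Late had the highest mean in 1362 members (50.6%), against 29.5% of all regions. Basal was highest in 863 (32.0%, against 40.2%) and Early in 468 (17.4%, against 30.2%). Early was the lowest group in 1247 members (46.3%, against 24.9%).

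The test was then run region by region. In Late against Early, 12 members were higher (0.446%, against 0.434% of all 172144 regions tested) and 1 lower (0.0371%, against 0.235%) by limma at an adjusted p under 0.05. The members' log2 difference had a median of 0.13, against -0.03 over all regions. These counts moved with single libraries: without Early 2 they numbered 97 higher and 2 lower, without Early 1 2 and 3, and without Early 3 2 and 1. Those over all regions moved too. They were 2956 higher and 5142 lower without Early 2, 505 and 676 without Early 1, and 152 and 15 without Early 3. After quantile normalization 2636 and 1201 of all regions were called. Without any 1 Late library the members called were 1 to 3 higher and 1 lower. Of all regions, 94 to 300 were then higher and 18 to 89 lower. After quantile normalization the members called were 177 higher and 1 lower. With the 4 Late libraries averaged to 1 sample, the members' median log2 difference was 0.14, against -0.01 over all regions.

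In Late against Basal, 224 members were higher (8.32%, against 14.2% of all regions) and 41 lower (1.52%, against 16.5%). The rule's ceiling on these libraries itself limits such calls, so nothing is read from the lower shares. The median log2 difference was 0.08, against -0.01 over all regions. Leaving out any 1 Late library lowered the calls to between 146 and 174 in all, and leaving out Basal 3 lowered them to 176. Over all regions the calls fell as well, from 24471 higher and 28402 lower. They were 17556 to 19838 higher and 20974 to 23171 lower without any 1 Late library, and 19355 and 23451 without Basal 3. The split of the members also moved with the scaling, as did that over all 172144 regions, given in parentheses. It was 489 higher and 1 lower on the deposited RPKM (41203 and 10380) and 481 and 12 after quantile normalization (28537 and 26340). With a covariate for each library's share of reads in regions it was 110 higher and 156 lower (15973 and 22165). With the 4 Late libraries averaged to 1 sample, the members' median log2 difference was 0.08, against 0.01 over all regions.

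In Early against Basal, 48 members were higher (1.78%, against 7.93%) and 124 lower (4.60%, against 6.73%). Their median log2 difference was -0.04, against 0.00 over all regions. The direction depended on the library and the scaling: without Early 1, 92 were higher and 68 lower. Without Early 2, 5 were higher and 87 lower, without Early 3 27 and 85, and without Basal 4 35 and 73. On the deposited RPKM, 62 were higher and 3 lower.

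Individual members show what these contrasts look like. At chr1:193176772-193177037, Late had 0.687, 1.22, 1.23 and 1.29 scaled RPKM and Early 0.277, 0.284 and 0.114, a log2 difference of 1.14 ± 0.17 (SE, limma adjusted p = 0.0109). Reactivated had 1.48, 1.65 and 1.68 there and Basal 0.430 to 0.720, so the level was lowest in Early, intermediate in Basal and higher in Late and Reactivated. The Late values of this region did not overlap those of Early, while Late 1 overlapped Basal. At chr11:87261725-87262702, Late had 0.985 to 1.32 and Early 0.131, 0.419 and 0.325 (log2 difference 1.01 ± 0.18, adjusted p = 0.0185). Reactivated had 1.72, 1.92 and 1.59 and Basal 0.332 to 0.746, again with Late between Reactivated and the day 0 groups. Neither call held with only the 2 groups in the fit, without Early 3 or with the 4 Late libraries averaged to 1 sample. The call at chr11:87261725-87262702 was also lost without Late 2, Late 4 or Early 1.

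Late stood above Basal in the same way at chr6:37434687-37435453, with 1.71, 1.98, 1.97 and 1.89 in Late and 0.711, 0.570, 0.449 and 0.453 in Basal (log2 difference 1.20 ± 0.15, limma adjusted p = 0.000414). Reactivated had 2.02, 2.02 and 2.80 there, so Reactivated 1 and 2 were barely above Late 2. At chr12:33671268-33671488 Late had 1.80 to 2.35 and Basal 0.172 to 1.26 (1.30 ± 0.26, adjusted p = 0.00242), with 2.68, 2.74 and 3.19 in Reactivated and 2.64 in Early 2. The reverse order was seen at chr5:77737923-77739842, where Late had 2.56 to 2.80 and Basal 4.31 to 5.31 (-0.71 ± 0.15, adjusted p = 0.00263). Reactivated had 5.59, 5.71 and 6.11 at that region, close above Basal and far above Late. On the deposited RPKM this region was no longer called, and with the 4 Late libraries averaged to 1 sample none of the 3 regions was.

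Early stood above Basal at chr13:100805782-100806174, with 1.12, 1.29 and 1.70 in Early and 0.278, 0.194, 0.207 and 0.885 in Basal (log2 difference 1.12 ± 0.23, limma adjusted p = 0.00666). The same was seen at chr8:130859946-130860408, with 0.913, 1.93 and 1.99 in Early and 0.246 to 0.964 in Basal (1.02 ± 0.23, adjusted p = 0.0112), although Early 1 lay within the range of Basal there and the call was lost without Early 2. Early stood below Basal at chr7:53069312-53070310, with 0.459, 0.884 and 1.29 in Early and 2.12 to 2.68 in Basal (-1.13 ± 0.19, adjusted p = 0.00332). At chr7:134621061-134622821 Early had 0.938, 0.966 and 1.30 and Basal 2.04 to 2.63 (-0.91 ± 0.16, adjusted p = 0.00383), a call that was lost on the deposited RPKM. At both chromosome 7 regions the Late values, 1.53 to 2.59 and 2.07 to 2.46, were above all 3 Early values, and Reactivated had 2.98 to 3.58 and 2.66 to 4.15.

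For the contrasts the rule itself used, the calls are given only as a description, and they share the Reactivated libraries. Of the 2693 members, 1487 were called higher in Reactivated than in Basal (55.2%, against 10.1% of all regions), 752 higher than in Early (27.9%, against 2.32%) and 146 higher than in Late (5.42%, against 0.695%). The direction is fixed by the rule, and nothing is read from the counts. Leaving out 1 Reactivated library lowered the share of members called to between 25.1% and 34.8% against Basal, 1.11% and 14.9% against Early, and 0.111% and 0.223% against Late. Calls of higher over all regions fell too. They went from 17302 to between 6692 and 13157 against Basal, from 3986 to between 88 and 2363 against Early, and from 1197 to between 21 and 51 against Late. Leaving out Basal 2 or Basal 3 gave 34.3% and 34.9% of members against Basal, and 11620 and 11133 of all regions. With a covariate for each library's share of reads in regions limma called 0 members against Basal, with 932 at an unadjusted p under 0.05. It then called 0 of all 172144 regions as well. Without Early 1, Early 2 or Early 3 the share of members against Early was 1.67%, 50.4% or 9.65%, and 131, 8704 or 1144 of all regions were higher. Against Late the share of members was 0.149% to 0.408% without any 1 Late library, 13.5%, 9.84% and 2.45% without Early 1, 2 and 3, and 8.73%, 3.45% and 1.97% without Basal 1, 2 and 4. Of all regions, 52 to 85 were then higher without any 1 Late library. Without Early 1, 2 and 3 they were 2726, 2102 and 589, and without Basal 1, 2 and 4 2224, 787 and 511.

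Members lay near each other more often than the rest of the regions did. Of the 2693 members, 152 (5.64%) had another member as the next eligible region within 10 kb, against 1.92% of all regions and 3 (0.183%) of the regions lowest in Reactivated. Counting by neighbours, 4.69% of the regions beside a member were members, against 1.49% of those beside a region that was not. Most members were nevertheless alone: with gaps of at most 10 kb, 2489 stood singly, 91 runs held 2, 5 held 3 and 1 held 7. Neighbouring regions are not independent measurements.

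The run of 7 members spans 37557 bases at chr13:23617930-23655487, where the table has 8 regions. The highest, chr13:23642990-23643753, had 6.41, 7.70 and 7.40 in Reactivated, 2.83 to 3.63 in Late, 2.02, 6.28 and 4.02 in Early, and 4.61, 2.74, 3.24 and 4.78 in Basal. At chr13:23622109-23623772 Reactivated had 6.47, 5.73 and 6.08, against 2.99 to 3.54 in Late, 2.40, 4.37 and 3.38 in Early, and 4.78, 2.77, 3.20 and 5.09 in Basal. In the widest region of the run, chr13:23634831-23637188 with 2357 bases, Reactivated had 3.08, 2.94 and 3.45, against 1.68 to 2.15 in Late, 1.32 to 2.51 in Early and 0.954 to 1.97 in Basal. Early 2 was the highest of the 11 other libraries in 6 of the 7 regions, and Basal 4 in the seventh. Early 2 also had the highest share of reads in regions of all libraries, 27.8%. The ratio of the lowest Reactivated to the highest other value was 1.02 to 1.17 along the run, and 1 of the 7 stayed a member under each of 5 ways of scaling the libraries.

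A different pattern was seen at chromosome 9. The member of highest mean RPKM was chr9:35112799-35113174, 375 bases long, with scaled RPKM of 106, 134 and 62.6 in Reactivated. It had 5.82, 5.20, 4.55 and 4.64 in Late, 32.1, 25.0 and 35.3 in Early, and 22.6, 39.3, 54.3 and 27.0 in Basal. It was the only member called lower in Late than in Early (log2 difference -2.49 ± 0.29, limma adjusted p = 0.00195) and had the largest fall from Basal among members lower in Late (-2.63 ± 0.27, adjusted p = 0.000145). Late was thus far below every other group, and Reactivated 3 was 1.15 times Basal 3. Without Reactivated 3 the ratio was 1.96. Both calls were lost with the 4 Late libraries averaged to 1 sample.

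The 3 longest members lie at the start of chromosome 9, where the table has 6 regions from position 3000001 to 3038220. They are chr9:3000001-3004815, chr9:3023469-3032951 and chr9:3033826-3038220, of 4814, 9482 and 4394 bases. At chr9:3023469-3032951 Reactivated had 2.04, 3.12 and 1.41, against 0.511 to 0.862 in Late, 0.611 to 0.774 in Early and 0.563 to 1.19 in Basal. At chr9:3000001-3004815 it had 1.39, 2.13 and 0.956, against 0.329 to 0.546 in Late, 0.268 to 0.469 in Early and 0.236 to 0.648 in Basal. At chr9:3033826-3038220 it had 2.52, 3.80 and 1.73, against 0.756 to 1.08 in Late, 0.659 to 0.914 in Early and 0.683 to 1.55 in Basal. In these 3 regions and in chr9:35112799-35113174, Reactivated 2 was the highest and Reactivated 3 the lowest of the recall libraries, and Basal 3 was the highest of the others. That order of the Reactivated libraries was found in 237 members (8.80%), against 12.0% of all regions. The likeness of the 4 regions was noticed after their values were seen. Of the other regions at the start of the chromosome, chr9:3011707-3022716 had a ratio of 1.51 but a mean of 0.366 RPKM, under the minimum of the rule. Another, chr9:3009309-3010085, held 1 read in every library. How reads that align to several places were treated is not given. Whether the values of these long regions and of chr9:35112799-35113174 reflect open chromatin was not tested.

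**Figure D4:**
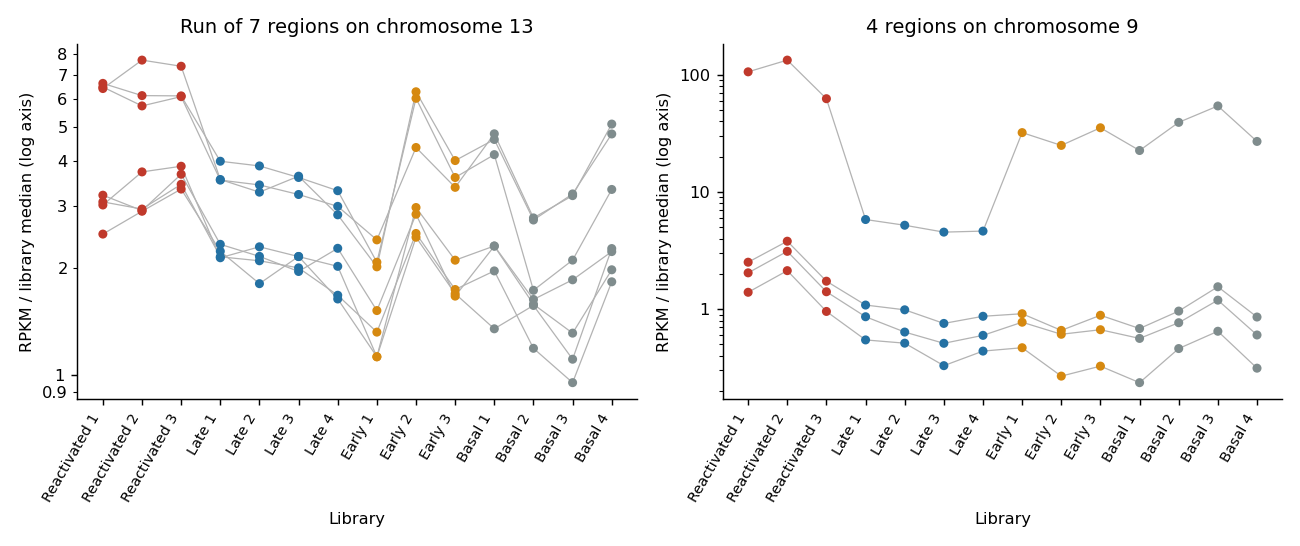
Scaled RPKM (log axes) in the 14 libraries, with 1 line per region and colours by group. The left panel has the 7 members of the run on chromosome 13, where Early 2 rises close to the Reactivated libraries. The right panel has the 4 chromosome 9 members, where Reactivated 2 is highest, Basal 3 is the highest of the others, and the uppermost line, chr9:35112799-35113174, lies at 4.55 to 5.82 in Late against 62.6 or more in Reactivated.

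Of the 6 members of highest level, the 4 not yet described had narrow margins. At chr17:56218372-56219228 Reactivated had 14.5, 9.09 and 9.76, against 5.01 to 5.87 in Late, 3.39, 8.37 and 4.61 in Early, and 5.81 to 8.21 in Basal. At chr8:4165876-4166938 it had 12.3, 9.14 and 9.88, against 4.51 to 5.20 in Late, 3.26 to 8.83 in Early and 5.61 to 9.05 in Basal. At chr4:21774580-21775791 Reactivated was even at 9.05, 8.88 and 8.71, against 4.38 to 5.03 in Late, 4.14 to 7.77 in Early and 5.11 to 6.94 in Basal. At chr4:49644358-49645556 it had 8.22, 8.18 and 8.74, against 3.86 to 4.37 in Late, 3.63 to 7.62 in Early and 4.21 to 7.79 in Basal. In these 4 regions every Reactivated value was at least 1.5 times every Late value, while the lowest Reactivated value was 1.01 to 1.12 times the highest of the others, which was Early 2 or Basal 1. Late had the narrowest range of levels over all regions, and the part of this in the gap over Late was not tested. After quantile normalization the ratio of the lowest Reactivated to the highest other value was 0.650, 0.899, 0.775 and 0.843, in the order given. None of the 4 regions then met the rule. The fourth longest member, chr15:48621225-48625109, had 2.48, 2.43 and 3.02 in Reactivated, against 2.05 to 2.26 in Late, 1.49 to 2.33 in Early and 1.61 to 2.29 in Basal. It is 3884 bases long.

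Members were found on all 19 autosomes. Their share of regions was highest on chromosome 11 (189 members, 2.50%) and chromosome 9 (160, 2.23%), and lowest on chromosomes 18 (94, 1.13%) and 15 (88, 1.15%). Over the 19 autosomes the share moved with the chromosome's median fold of Reactivated over the other libraries (Pearson's r 0.57, Spearman's rho 0.52), which all regions of a chromosome set, members included. The share of regions lowest in Reactivated, 0.974% over all autosomes, was 0.0584% on chromosome 7, 0.115% on chromosome 17, 0.228% on chromosome 19 and 0.404% on chromosome 16. On these 4 chromosomes 1.49%, 1.84%, 1.40% and 1.74% of regions were members.

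How many of the 2693 held up depended on the scaling. Without division by the library median, 4073 regions met the rule on the deposited RPKM, and 1529 of them were members (56.8% of the members, 37.5% of the 4073). With median-of-ratios size factors the number was 2048, and all of them were members. Division by the library mean gave 1908, of which 1715 were members. In all, 729 members (27.1%) met the rule under each of 5 scalings, the library median, these 3 and quantile normalization. They had a median length of 787 bases and a median level of 1.55 RPKM, against 870 bases and 1.82 RPKM for all members. The scalings kept 10 of the 12 members with the widest margin, 3 of the 4 longest and none of the 6 with the highest level.

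**Figure D5:**
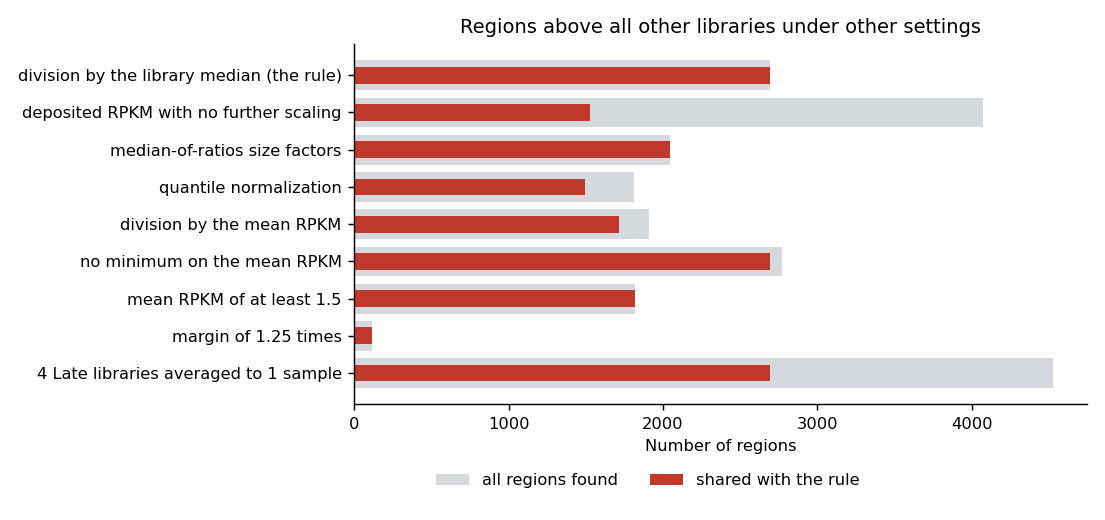
Number of autosomal regions (horizontal axis) in which all 3 Reactivated values exceeded all others under the rule and 8 other settings. Grey bars give all regions found and red bars those that are among the 2693 members, for example 4073 and 1529 on the deposited RPKM and 1815 and 1497 after quantile normalization.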

How the data were processed

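The deposited table holds RPKM values of 191271 regions in 14 libraries. How the authors made it is known only as names: DESeq2, DiffBind, MACS2, SAMtools, Bowtie2 2.0 and the build mm9, per the submitters' processing notes, in roles that are not stated. Region calling, removal of duplicates and shifting of cut sites are likewise not given in the sources used here. These steps set region borders and high counts. Coordinates are as in the deposited table, which does not state whether starts are 0-based or 1-based. Multiplied by length, 100% of values were whole reads within a tolerance of 0.01, which gave reads and totals. The smallest such product of each library was taken as 1 read, so the lowest value is 1 by construction. In each library 2.27% to 3.11% of regions were at this value. Whether it stands for regions without reads is not stated.

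The regions and the rule for naming positions were chosen with earlier results of these data known. Positions named are the 12 members with the widest margin, the 6 of highest mean RPKM, the 4 longest, 4 just inside and 4 just outside the rule, the largest run, and up to 2 called members per direction of each contrast without Reactivated. The chromosome 9 start is named beside them.

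Tests used limma 3.58.1 in R 4.3.3 (trend, robust) on log2(scaled RPKM + 0.5), which understates changes of low regions. The 10% of regions of lowest mean RPKM were left out, leaving 172144, all libraries entered 1 fit, tests were 2-sided, and p-values were adjusted by Benjamini-Hochberg over regions with a threshold of 0.05. All 2693 members passed this filter, which uses the mean over all libraries. The fit was tested on simulated data. Python 3.11.15 with pandas 2.3.3, numpy 2.4.6 and scipy 1.17.1 did the rest. Alternatives were other scalings, pseudocounts, filters and designs, each library left out, a replicate block and the 4 Late libraries averaged, since their reads differed less among themselves (mean chi-square per region 1.72 to 1.94, where sampling noise alone gives 1) than those of other groups (2.25 to 6.45). They were counted as 4 because the labels list 4.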

Additional observations from a re-analysis of the deposited data

Results flagged for a closer look

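Of 94 sets of 4 libraries, most at the named regions and some of whole-library measures, 5 held a library far from the other 3. Chance flags about 1 in 20, and all 5 were at named regions. At chr4:142722282-142722432, Late 1 had 0.441 scaled RPKM and the other Late libraries 0.790 to 0.860. At chr10:80052958-80053533, Late 1 had 1.67 and the others 2.22 to 2.30. At chr1:193176772-193177037, Late 1 had 0.687 and the others 1.22 to 1.29. At chr11:87261725-87262702, Late 2 had 1.32 and the others 0.985 to 1.02. At chr13:100805782-100806174, Basal 4 had 0.885 and the other Basal libraries 0.194 to 0.278. Late 1 was the low library in 3 of the 5 cases.

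Chromosome X, which the rule leaves out, had 48 of 3365 regions of the same minimum level with all Reactivated values above all others, or 1.43%, against 1.60% on the autosomes. The opposite pattern was met by 6 of its regions (0.178%), against 0.974% on the autosomes.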

How the results depend on the processing

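Regions meeting the rule numbered 4073 on the deposited RPKM, 4525 with the 4 Late libraries averaged to 1 sample, 114 with a margin of 1.25 times, and 2741 to 6947 with 1 library left out. Members called by limma ranged, with 1 library left out, from 92 to 183 in Early against Basal, 146 to 336 in Late against Basal, and 2 to 99 in Late against Early. As a share of the members, those called ranged from 25.1% to 62.7% in Reactivated against Basal, 1.11% to 50.4% in Reactivated against Early and 0.111% to 13.5% in Reactivated against Late. In that order of comparisons, the deposited RPKM gave 65, 490 and 4 calls and shares of 92.8%, 9.54% and 0.334%. It moved the median log2 difference of all regions to 0.23, 0.28 and 0.39 for Early, Late and Reactivated against Basal. Of all regions it called 41783, 1625 and 44 higher in Reactivated against Basal, Early and Late. Quantile normalization gave 493 member calls in Late against Basal, 178 in Late against Early and 0.631% in Reactivated against Late, where 100 of all regions were higher. In Late against Early, median-of-ratios factors gave 21 members, and 845 higher and 456 lower of all regions. A pseudocount of 0.1 gave 24 members, and 787 and 451 of all regions. With only the 2 groups compared, calls were 29 in Early against Basal, 1 in Late against Early (342 at an unadjusted p under 0.05), 0 in Reactivated against Early (1885 at an unadjusted p under 0.05) and 24.0% in Reactivated against Late. With the Late libraries averaged, they were 68 in Early against Basal and 32.3% in Reactivated against Basal. The members' median log2 difference was then 0.08 in Late against Basal, against 0.01 over all regions, and 0.14 in Late against Early, against -0.01. In Reactivated against Early it was 0.58, against 0.01, and in Reactivated against Late 0.44, against 0.03. A covariate for each library's share of reads in regions gave member calls by limma of 273 in Early against Basal, 107 in Late against Early, 3.60% in Reactivated against Late and 0 in Reactivated against Basal (932 at an unadjusted p under 0.05). Of all regions, 6078 were then higher and 8819 lower in Early against Basal, and 2609 and 4060 in Late against Early. In Reactivated against Late they were 1183 and 540, and in Reactivated against Basal 0 and 0. The cause of these changes was not tested.

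With the replicate number as a block, member calls were 67 in Early against Basal, 1 in Late against Early, 178 in Late against Basal, 35.5% in Reactivated against Basal, 6.80% in Reactivated against Early and 0.111% in Reactivated against Late. Of all regions, 7881 were then higher and 6625 lower in Early against Basal, 98 and 19 in Late against Early, and 21522 and 25547 in Late against Basal. Those higher in Reactivated were 11837 against Basal, 709 against Early and 13 against Late. Deviations of libraries that share a number had correlations of -0.26 to 0.06 over 19 pairs, against -0.15 to 0.19 over 54 pairs with different numbers. The correlation was best with the own number in 0 libraries. Whether a number marks a shared batch was not tested.

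The ratio of the lowest Reactivated to the highest other value crossed 1 for these regions. On the deposited RPKM it was 0.853 at chr17:56218372-56219228, 0.813 at chr8:4165876-4166938, 0.898 at chr4:21774580-21775791, 0.843 at chr4:49644358-49645556, 0.820 at chr15:48621225-48625109, 0.930 at chr8:75094494-75096397, 0.982 at chr11:94194096-94194554 and chr5:66966278-66968260, and 1.05 at chr16:10080108-10080743. In the chromosome 13 run it was 0.863 (chr13:23617930-23618678), 0.799 (chr13:23626788-23627652), 0.920 (chr13:23634831-23637188), 0.863 (chr13:23642990-23643753), 0.804 (chr13:23646774-23648438) and 0.859 (chr13:23653502-23655487). After quantile normalization it was 0.975 at chr10:127111752-127112281, 0.948 at chr15:74424229-74425317, 1.00 at chr9:35112799-35113174, 0.650 at chr17:56218372-56219228, 0.899 at chr8:4165876-4166938, 0.775 at chr4:21774580-21775791, 0.843 at chr4:49644358-49645556 and chr15:48621225-48625109, 0.927 at chr10:80052958-80053533, 0.931 at chr8:75094494-75096397, 0.869 at chr11:94194096-94194554, 1.05 at chr2:144304968-144305611, and 0.860, 0.83, 0.901 and 0.952 at chr13:23617930-23618678, chr13:23626788-23627652, chr13:23642990-23643753 and chr13:23653502-23655487. With median-of-ratios factors it was 0.995 at chr8:4165876-4166938, 0.966 at chr10:80052958-80053533, 0.986 at chr8:75094494-75096397, 0.972 at chr11:94194096-94194554, 0.958 at chr5:66966278-66968260 and 0.992 at chr13:23626788-23627652. Division by the mean gave 0.984 at chr15:48621225-48625109, 0.933 at chr11:94194096-94194554, 0.897 at chr5:66966278-66968260, 1.04 at chr3:87350072-87350907 and 1.02 at chr2:144304968-144305611. With the Late libraries averaged it was 1.07 at chr16:10080108-10080743. With 1 library left out it was 1.00 to 1.02 at chr18:77458397-77459035, 1.00 to 1.12 at chr16:10080108-10080743, 1.00 to 1.10 at chr3:87350072-87350907 and 1.00 to 1.11 at chr2:144304968-144305611.

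Depth limits the shortest and lowest regions, where single libraries held 1 to 20 reads. Reads are not independent molecules, and read numbers show counting error only.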
